A study of Drosophila melanogaster with 2 samples.

Results

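Peaks of GFP-tagged CG32264 were examined at 10 cell death genes in whole Drosophila melanogaster larvae: the death genes reaper (rpr), head involution defective (hid), grim and sickle (skl), the caspases Dronc, Drice and Dcp-1 with their adaptor Dark, and the inhibitors Diap1 and Diap2. The genes were taken by name, and every peak was kept whose summit lay in a listed gene or within 10 kb of it. This gave 10 of the 2546 peaks of the optimal set, and 74 of the 30000 regions in the longer list of both replicates, 89 of 30000 in replicate 1 and 93 of 30000 in replicate 3. The windows of the 10 genes did not overlap and covered 251 kb, at 20.9 to 37.9 kb a gene.

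The peaks came from chromatin immunoprecipitation followed by sequencing (ChIP-seq), in which an antibody against green fluorescent protein (GFP) pulled down a C-terminal GFP fusion of CG32264 from chromatin sonicated to 200 to 800 bp. The larvae were wandering larvae of the third instar, males and females pooled, from a transgenic line with an insertion aimed at CG32264, a gene of the phosphatase and actin regulator (Phactr) family. There was 1 group with 2 biological replicates, numbered 1 and 3, no other genotype, stage or treatment, and no control library analysed here. All results are therefore descriptions of peaks, and no test between conditions was possible. Whole larvae mix all tissues, so a strong peak in few cells and a weak one in many cannot be told apart.

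In flies, rpr, hid, grim and skl encode proteins that bind inhibitor of apoptosis proteins and thereby free caspases. Diap1, a ubiquitin ligase, holds back the initiator caspase Dronc and the effector caspases Drice and Dcp-1, and Dark assembles Dronc into the apoptosome. Pulses of ecdysone around the onset of metamorphosis start the removal of larval midgut and salivary glands, a process in which rpr and hid are known to be induced. The death genes lie next to each other on chromosome arm 3L, spread over long stretches with few other genes.

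A peak's signal is the authors' value on a scale of its own list, so ranks by signal are compared between lists rather than the signals. The optimal set is the part of the list of both replicates kept by the authors' irreproducible discovery rate step, and its signals ran from 61.1 to 956 (median 90.2). The 30000 regions of each longer list include background, so a region was called top when it ranked within the first 2546 of its list. This corresponded to a signal of at least 61.1 in the list of both replicates, 36.7 in replicate 1 and 29.2 in replicate 3. Read depth cannot be had from peak lists, and the absence of a region does not show that CG32264 was absent.

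Reference sequence was read at selected summits. The summit base with 100 bp on either side is given below from the RefSeq sequence of Release 6 (dm6), plus strand, 5′ to 3′, for the highest optimal-set peak of a death gene and of an inhibitor, and for the highest regions of rpr and Drice, both of which stayed outside the optimal set. Capitals mark matches to the short words searched, here TATAAA on either strand or the Mef2 site.
hid, chr3L:18185879-18186079: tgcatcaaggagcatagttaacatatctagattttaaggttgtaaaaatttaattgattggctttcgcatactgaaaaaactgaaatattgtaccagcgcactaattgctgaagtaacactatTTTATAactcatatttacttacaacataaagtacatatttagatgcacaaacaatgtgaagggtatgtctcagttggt
Diap1, chr3L:16046068-16046268: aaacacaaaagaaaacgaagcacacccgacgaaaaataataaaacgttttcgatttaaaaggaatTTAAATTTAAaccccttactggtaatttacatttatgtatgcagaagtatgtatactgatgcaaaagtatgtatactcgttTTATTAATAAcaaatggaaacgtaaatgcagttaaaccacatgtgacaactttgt
rpr, chr3L:18406120-18406320: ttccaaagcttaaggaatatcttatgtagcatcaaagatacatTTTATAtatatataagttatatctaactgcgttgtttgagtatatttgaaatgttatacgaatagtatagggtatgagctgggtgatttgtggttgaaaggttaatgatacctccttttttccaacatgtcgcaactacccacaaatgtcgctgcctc
Drice, chr3R:29799462-29799662: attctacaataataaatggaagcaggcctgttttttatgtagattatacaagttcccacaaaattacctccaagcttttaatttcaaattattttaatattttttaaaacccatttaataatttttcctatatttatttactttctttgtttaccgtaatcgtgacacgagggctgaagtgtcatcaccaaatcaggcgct
The hid and rpr windows each held 1 TATAAA, the Diap1 window held 2 matches to the Mef2 site, and the Drice window held none of the words. Their GC content was 30.8% at hid, 29.4% at Diap1, 33.8% at rpr and 29.9% at Drice. The same window at the best region of Dronc, which lies in a coding exon of a neighbouring gene and is not printed, had 47.3% GC and 2 matches to GAGAG.

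Optimal-set peaks were present at 4 of the 10 genes, with 4 at hid, 3 at Diap1, 2 at Dcp-1 and 1 at Dark, and none at rpr, grim, skl, Dronc, Drice or Diap2. By the same rule 41.0% of all 18164 genes and 43.2% of the 13945 protein-coding genes had an optimal-set summit, so the share among the cell death genes was near the background. Among the top regions of replicate 1, 5 of the genes had a summit (hid, Diap1, Dcp-1, Dark and rpr), against 44.7% of protein-coding genes. In replicate 3 there were 3 (hid, Diap1 and Diap2), against 40.1%. In the 3 longer lists every one of the 10 genes had at least 1 summit, as did 93.2% of protein-coding genes in the list of both replicates, 95.1% in replicate 1 and 93.1% in replicate 3.

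**Figure D1:**
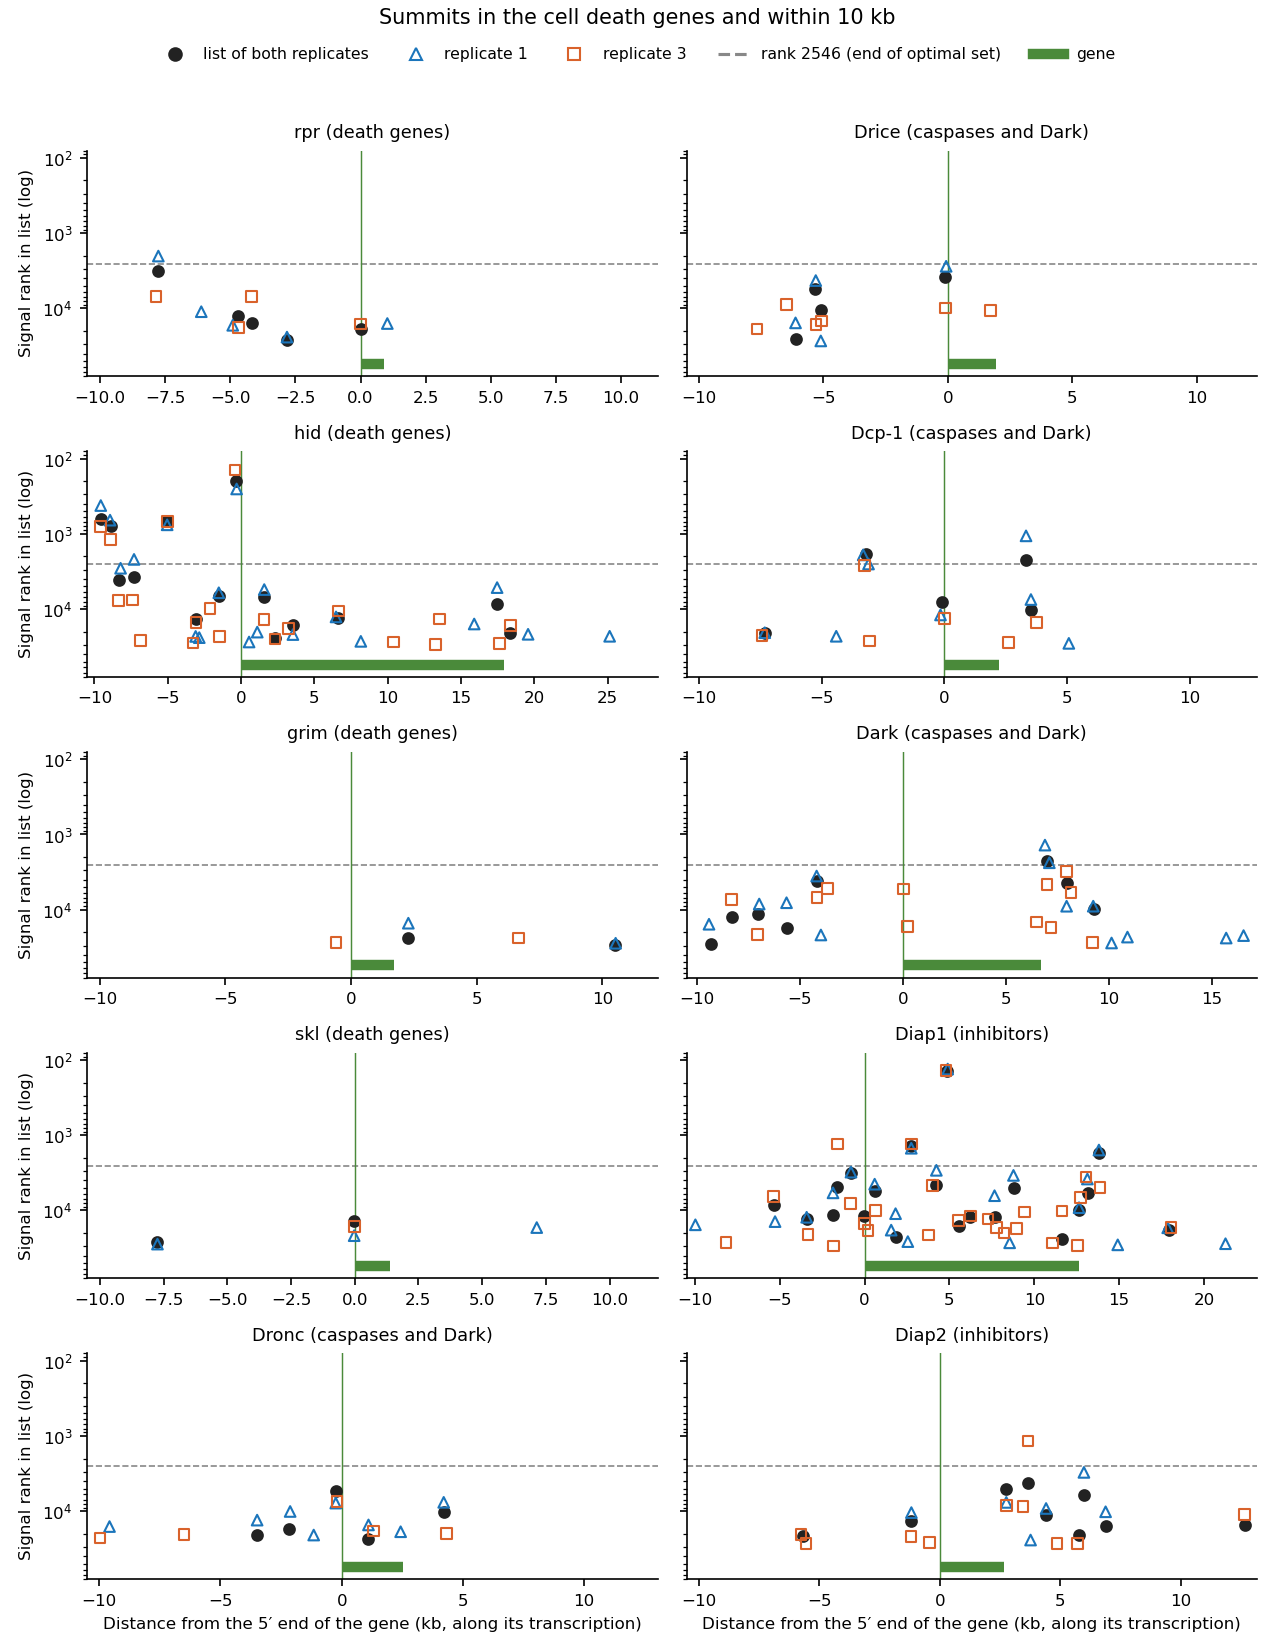
Summits at the 10 cell death genes, with distance from the 5′ end of the gene along its transcription (kb, horizontal) and rank by signal in each list (vertical, log scale, highest rank at the top). Filled circles show the list of both replicates, triangles replicate 1 and squares replicate 3, the dashed line is rank 2546 and the green bar is the gene. Regions above the line in all 3 lists are seen only at hid and Diap1.

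The gene hid (FBgn0003997, chr3L:18167745-18185641, minus strand) held the most optimal-set peaks of the 10 within 10 kb, although with a limit of 5 kb it had 1, against 3 at Diap1 and 2 at Dcp-1. Its highest peak lay 338 bp upstream of its only annotated start, between genes (chr3L:18185791-18186166), with a signal of 219 at rank 196. The overlapping region ranked 254 in replicate 1 (signal 125) and 142 in replicate 3 (signal 102), so it stood near the head of every list.

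The other 3 hid peaks formed a series further upstream. The peak at 5031 bp (chr3L:18190484-18190859) ranked 672 with a signal of 127, and 761 and 682 in replicates 1 and 3. At 8885 bp, a peak of 167 bp (chr3L:18194412-18194578) ranked 791 with a signal of 117, and 660 and 1195 in the replicates. At 9578 bp (chr3L:18195031-18195406), just inside the 10 kb limit, the rank was 636 with a signal of 129.7, and 422 and 804 in the replicates. The last 2 lay 1646 and 953 bp from the start of the non-coding gene lncRNA:CR45234, which was nearer than hid.

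None of the 4 hid peaks lay in the transcribed gene. In the list of both replicates 14 summits fell in the hid window and 5 of them in the gene, where the best, in an intron 1559 bp from the start, ranked 6953 with a signal of 33.7. Replicate 1 held a further top region 7301 bp upstream (rank 2194, signal 40.1), which ranked 3733 in the list of both replicates. Of all protein-coding genes, 360 (2.58%) had at least as many optimal-set summits as hid, and 821 (5.89%) had a best rank at least as high. These shares take no account of length: hid is 17897 bp long and Diap1 12625 bp, whereas the median protein-coding gene is 2.17 kb long. With 10 kb on either side, the hid window covered 37.9 kb and that of Diap1 32.6 kb, and a longer window has more room for summits.

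At rpr (FBgn0011706, chr3L:18397535-18398435), the death gene whose product gave the family its name, no optimal-set peak was found. Its highest region lay 7785 bp upstream, between genes (chr3L:18406032-18406407), and ranked 3216 with a signal of 53.5. It ranked 2026 in replicate 1 (signal 42.0), which is top, and 6987 in replicate 3 (signal 16.9), which is not. A summit 4 bp upstream of the rpr start ranked 18650 with a signal of 18.1.

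The neighbouring grim (FBgn0015946, chr3L:18302719-18304417) and skl (FBgn0036786, chr3L:18438561-18439942) had the lowest ranks. For grim the best region of the list of both replicates ranked 23673 (signal 15.5), 2281 bp downstream of the start and nearer to the start of CG13700. It overlapped a region of rank 15124 in replicate 1 and none in replicate 3. For skl the best region lay 26 bp upstream of the start at rank 13661 (signal 22.0), and overlapped regions of rank 21666 in replicate 1 and 16377 in replicate 3. The median best rank of protein-coding genes was 2883 in the list of both replicates, with a median of 6 summits a window, against 2 at grim and 2 at skl. Over the 3 longer lists, 81.2 to 87.0% of protein-coding genes had a best rank at least as high as that of skl, and 85.1 to 89.8% one at least as high as that of grim.

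Seen across the whole span from 10 kb beyond hid to 10 kb beyond skl, 292 kb in all, the optimal set held 7 peaks, and all of them lay in the 117 kb between hid and grim. Besides the 4 of hid, there was a peak 30.3 kb upstream of the hid start (chr3L:18215713-18216088, rank 1271, signal 90.3). Another 2 overlapped each other 50.3 and 50.5 kb upstream (chr3L:18235747-18236122, rank 457, signal 153, and chr3L:18235947-18236322, rank 1489, signal 82.8) and had the same best-ranked partner in each replicate, at rank 785 in replicate 1 and 251 in replicate 3. The regions closest to the summit of the weaker peak ranked 2554 in replicate 1, which is not top, and 1394 in replicate 3. The rule by gene and 10 kb leaves these 3 peaks out.

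Of the 3 stretches between the death genes, the one between grim and rpr held the fewest summits. The 93.1 kb between grim and rpr held 2 summits in the list of both replicates, the better at rank 25631, with 3 in replicate 1 and 5 in replicate 3. Of 1434 stretches of the same length laid end to end along the arms, 12.9% held as few or fewer in the list of both replicates (median 20), 12.1% in replicate 1 and 21.4% in replicate 3. Between rpr and skl (40.1 kb) there were 6 summits, the highest being the one of rpr. The rpr window held 23.9 summits per 100 kb in the list of both replicates, beside 24.3 over all protein-coding windows. The 3 stretches had nearly the same GC content, 38.2 to 38.3%, against 42.2% over the arms.

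**Figure D2:**
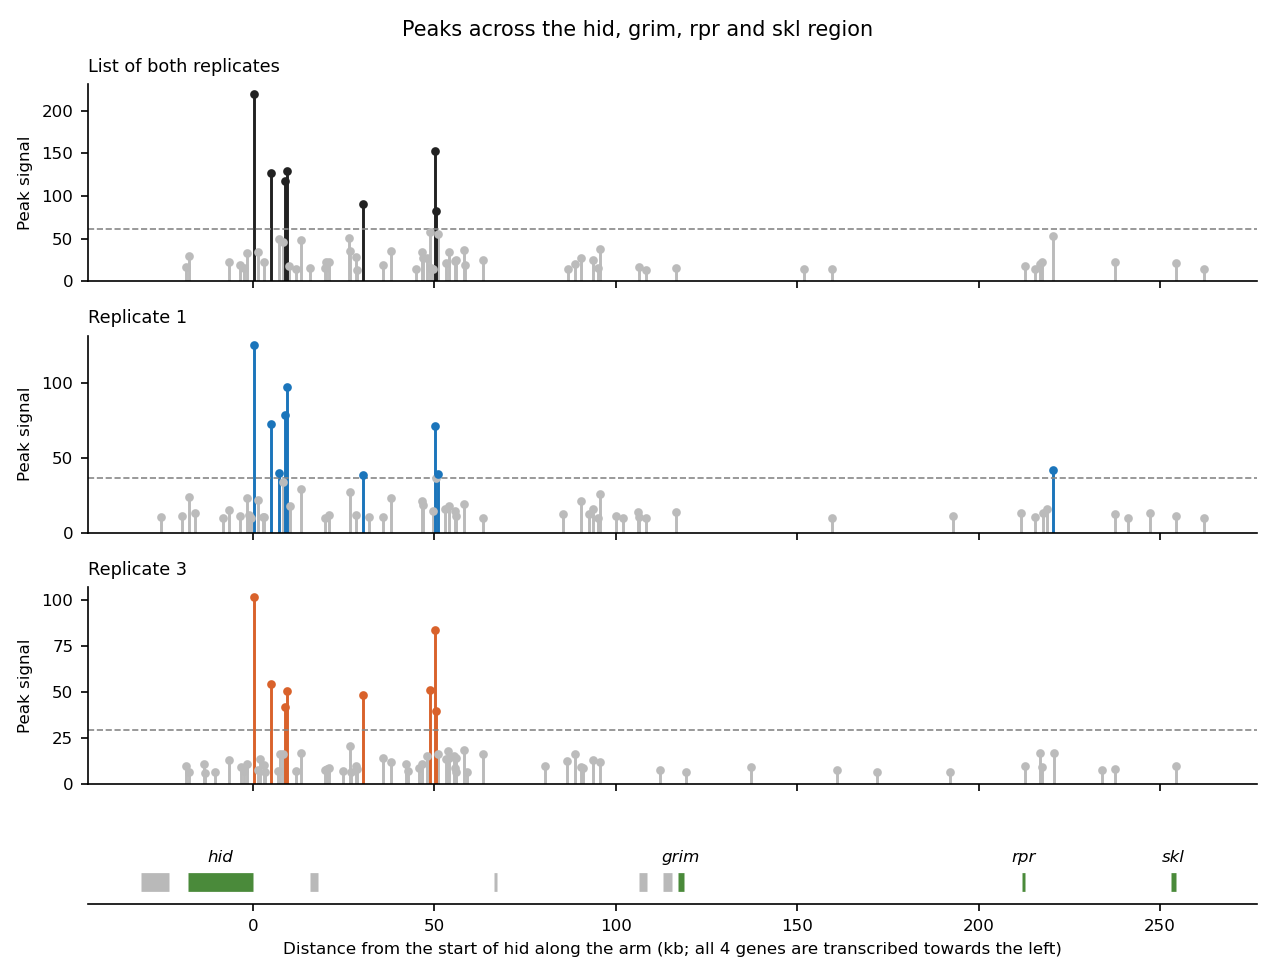
Signal of every listed region across the hid, grim, rpr and skl span, with distance from the hid start (kb) along the arm and the authors' signal, a separate scale for each list. Coloured stems are top regions, grey stems lower ones, the dashed line is the signal at rank 2546, and the bottom row shows the death genes in green and other protein-coding genes in grey. Top regions stand between 0 and 51 kb from hid in all 3 lists, and 1 stem of replicate 1 stands upstream of rpr.

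The initiator caspase Dronc (FBgn0026404, chr3L:9968479-9971002) and the effector caspase Drice (FBgn0019972, chr3R:29799658-29801584) each had their best region of the list of both replicates close to the start, below the optimal set. At Dronc it lay 238 bp upstream at rank 5401 (signal 39.4), inside a coding exon of CG6685 and 76 bp from the CG6685 start, and it ranked 7810 and 7469 in replicates 1 and 3. At Drice it lay 96 bp upstream at rank 3843 (signal 48.2), between genes, with ranks of 2772 in replicate 1 and 9941 in replicate 3. The nearest optimal-set peak outside the Drice window was 11632 bp from the gene, ranked 2517 (signal 61.7), and had its nearest start at kay, which encodes the fly Fos.

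Dcp-1 (FBgn0010501, chr2R:23551313-23553547), the other effector caspase, had 2 optimal-set peaks, and each lay at the start of another gene. The one 3191 bp upstream (chr2R:23547934-23548309, rank 1864, signal 73.1) was in the 5′ UTR of wmd, 29 bp from its start. It ranked 1911 in replicate 1 and 2657 in replicate 3. The other, 3319 bp downstream of the Dcp-1 start (chr2R:23554444-23554819, rank 2211, signal 66.5), was in the 5′ UTR of pita, a zinc finger protein gene, 80 bp from its start. It ranked 1067 in replicate 1 and had no overlapping region in replicate 3. In the list of both replicates, the summit closest to the Dcp-1 start lay 102 bp upstream of it, also in the 5′ UTR of pita. It ranked 8029 with a signal of 30.8.

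For the adaptor Dark (FBgn0263864, chr2R:17020027-17026703) the single optimal-set peak lay 309 bp beyond the 3′ end of the gene (chr2R:17026824-17027199, rank 2264, signal 65.8). Its nearest start, at 19 bp, was that of the antisense gene asRNA:CR44390. It ranked 1385 in replicate 1 and 4649 in replicate 3. The peak also overlapped another top region of replicate 1 (rank 2377), whose summit lay 61 bp upstream of the start of the coding gene RhoGEF2. No summit of the list of both replicates fell in Dark itself, although 8 fell in its window, and replicate 3 placed 3 in the gene.

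Diap1 (FBgn0260635, chr3L:16038410-16051034, minus strand, 5 annotated starts) carried the highest peak of the 10 genes. It lay in a Diap1 intron, 678 bp downstream of the nearest Diap1 start (chr3L:16046083-16046303), at rank 139 with a signal of 258. Its ranks were 132 in replicate 1 (signal 166) and 139 in replicate 3 (signal 103). A lower intronic peak (chr3L:16048106-16048481, 1448 bp upstream of the nearest Diap1 start) ranked 1412 with a signal of 84.9, and 1491 and 1313 in the replicates. Its nearest start belonged to lncRNA:CR43951, at 941 bp. The lowest, 1185 bp beyond the Diap1 gene in the 3′ UTR of CG5895 (chr3L:16037037-16037412), ranked 1749 with a signal of 75.9. It ranked 1575 in replicate 1 and 4937 in replicate 3.

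The Diap1 window was dense in all lists, with 20 summits in the list of both replicates, 21 in replicate 1 and 27 in replicate 3, against a median of 6 to 7 for protein-coding genes. Windows with at least as many made up 3.25%, 2.69% and 1.56% of protein-coding genes in these lists. In replicate 3 a further top region (rank 1314, signal 40.3) lay in an intron of the neighbouring Mbs, a myosin phosphatase subunit gene, and was not in the optimal set. Of all protein-coding genes 602 (4.32%) had an optimal-set rank at least as high as the best of Diap1.

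Diap2 (FBgn0015247, chr2R:15932170-15934825), an inhibitor best known for its part in the immune Imd pathway, had no optimal-set peak, and the replicates were far apart there. Its best region of the list of both replicates (rank 4168, signal 46.0) lay in an intron of bdg. The overlapping region ranked 1169 in replicate 3 (signal 42.4) and 24217 in replicate 1 (signal 10.5). The best of replicate 1 was at another site, 5871 bp downstream of the nearest Diap2 start, at rank 3052 (signal 32.7), where replicate 3 ranked 27011.

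Agreement between replicates differed among the genes. Of the 10 optimal-set peaks, 6 overlapped a top region of both replicates (60%, exact Clopper-Pearson 95% interval 26.2 to 87.8%, for counting error only), against 61.6% of the whole optimal set. These 6 were the 4 of hid and 2 of Diap1. The interval treats the 10 peaks as independent, but they come from only 4 genes, so it does not measure spread between genes. All 10 overlapped a top region of replicate 1 and 6 a top region of replicate 3, against 85.6% and 73.4% of the optimal set. All 3 peaks of Dcp-1 and Dark, as well as the lowest of Diap1, were top in replicate 1 only.

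**Figure D3:**
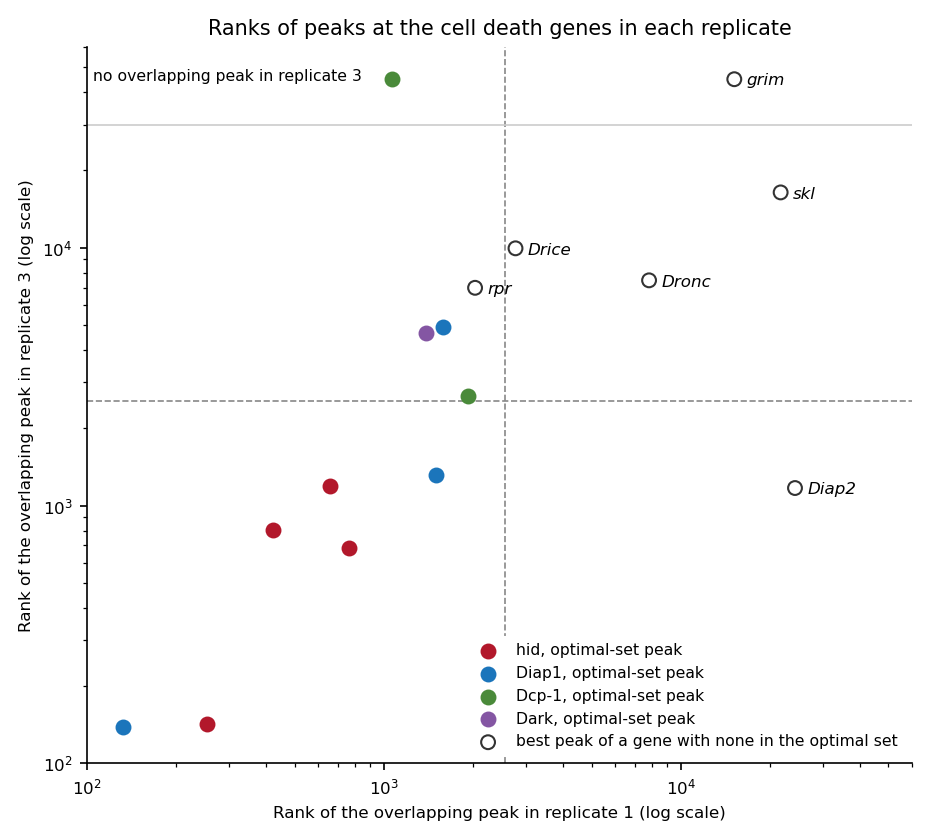
Rank of the overlapping region in replicate 1 (horizontal) and replicate 3 (vertical), both on log scales, for the 10 optimal-set peaks (filled, coloured by gene) and for the best region of the 6 genes without one (open). Dashed lines mark rank 2546, and points above the grey line had no overlapping region in replicate 3. The hid peaks and 2 Diap1 peaks lie in the lower left, top in both replicates.

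The death-gene region was set against the caspase and inhibitor genes as summits per 100 kb of window. The optimal set gave 3.93 at rpr, hid, grim and skl (4 summits in 102 kb), 3.21 at the caspases and Dark (3 in 93.4 kb) and 5.43 at the inhibitors (3 in 55.3 kb), beside 2.08 over all protein-coding windows. Counted as a single set, caspases, Dark and inhibitors had 4.04, a difference of -0.11 from the death genes. Over the top regions of each replicate alone the same difference was 0.51 in replicate 1 and 1.24 in replicate 3 (SD 0.51 between the replicates), so it did not keep its sign. Within the death genes the summits were uneven, since hid had 10.6 per 100 kb and the windows of rpr, grim and skl together had 0 in 64.0 kb.

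The caspase and Dark windows moved most between replicates, with 5 top summits in replicate 1 (5.36 per 100 kb) and 0 in replicate 3. The death genes had 6 and 4 (5.89 and 3.93 per 100 kb) and the inhibitors 3 and 4 (5.43 and 7.24 per 100 kb). In the whole list of both replicates the densities were 22.6 at the death genes, 23.6 at the caspases and Dark and 52.5 at the inhibitors, beside 24.3 over all protein-coding windows, and 14.1 at rpr, grim and skl. Crowding differed between these windows. Other protein-coding genes in or touching them numbered 0 to 2 at the death genes, 6 to 9 at the caspases and Dark, and 6 at each inhibitor, and its part in the counts was not tested.

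**Figure D4:**
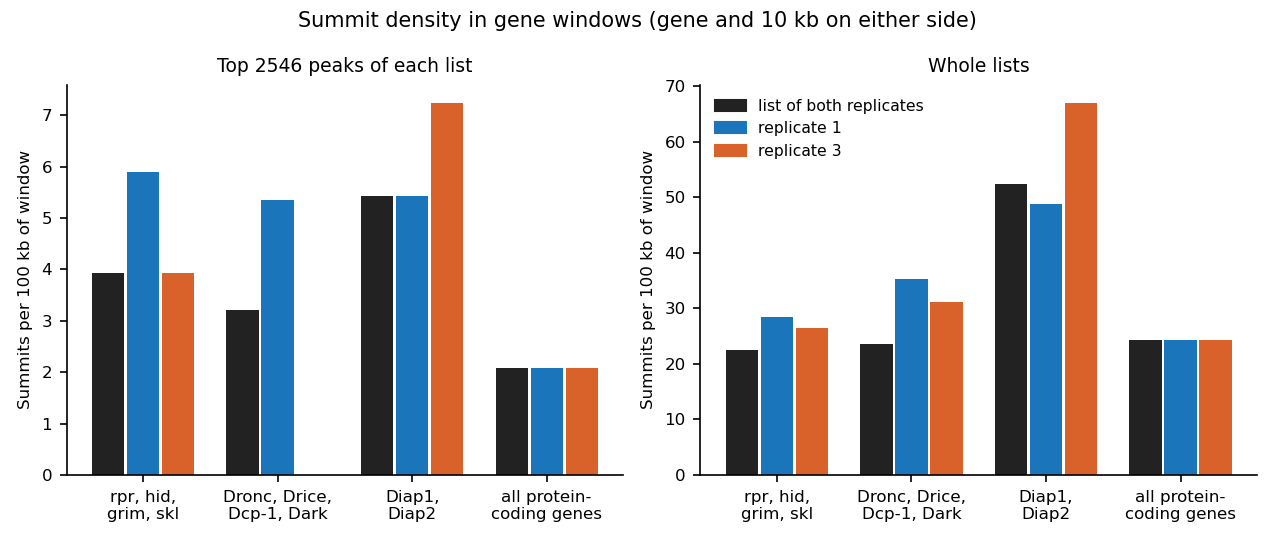
Summits per 100 kb of gene window (gene and 10 kb on either side) for the death genes, the caspases with Dark, the inhibitors and all protein-coding genes, among the top 2546 regions of each list (left) and in the whole lists (right, another scale). Black bars show the list of both replicates, blue replicate 1 and orange replicate 3. The caspase bar of replicate 3 is 0 on the left, and the inhibitor bars are the tallest on the right.

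The sequence at the 10 optimal-set summits was compared in windows of the same length, 100 bp on either side, with all 2546, on both strands. TATAAA was present in 6 of the 10 windows and in 32.0% of all. GATAA was in 1 (40.3% of all), TGANTCA, the AP-1 word, in 1 (4.63%), TATCGATA, a word of Dref and BEAF-32, in 1 (2.95%) and the Mef2 site in 1 (10.9%). GAGAG, the GAGA factor word (27.6% of all), AGGTCA, a nuclear receptor word (3.65%), and CACGTG, an E-box (2.24%), were in none. These words can overlap, since a Mef2 site may contain TATAAA and TATCGATA may run into GATAA. The AP-1 word was in the Diap1 peak of rank 1412, TATCGATA in the Dcp-1 peak at wmd, and GATAA in the Dcp-1 peak at pita. The GC content of the 10 windows was 29.4 to 39.8%, against a mean of 36.9% ± 6.46 (SD) over all 2546. Only the window of the Diap1 peak of rank 1412 was above that mean, and all the others lay below it. The part of GC content in the word counts was not tested.

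A wider list of 43 genes of cell death, autophagy, engulfment and the steroid response that precedes larval cell death was read by the same rule. Of these, 25 (58.1%) had an optimal-set summit, beside 43.2% of all protein-coding genes. In the top regions of replicate 1 there were 29, beside 44.7%, and in those of replicate 3 there were 25, beside 40.1%. The counts by group that follow are for the optimal set. None of the other 4 caspases, Dredd, Damm, Decay and Strica, had an optimal-set summit, although Decay had 1 top region in replicate 1 and Strica 1 in replicate 3. Of the 8 caspase regulators 4 had an optimal-set summit. Among egr, grnd, wgn and Fadd, which encode the fly TNF ligand, its receptors and an adaptor of Dredd, 1 did, Fadd. The steroid regulators had 5 of 5, the autophagy genes 9 of 12, engulfment 2 of 3, chromatin fragmentation 2 of 4, the Bcl-2 family 1 of 2, and the fly p53 gene had one. These counts take no account of gene length, and a longer window has more room for summits.

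The highest of these lay mostly nearer to another gene's start. The peak of crq, a scavenger receptor for dying cells, was in an intron (chr2L:442020-442199, rank 219, signal 210.0) with its nearest start at lncRNA:CR43717. The peak of dnr1, an inhibitor of Dredd, was in an intron of dnr1 (chr2R:22587650-22587817, rank 282, signal 192). That of p53 (chr3R:23046627-23046732, rank 317, signal 181) was nearest to CG17121, and that of Atg7, an autophagy enzyme (chr2R:18621457-18621623, rank 322, signal 180.4), to CG5335. The cytochrome c genes Cyt-c-p and Cyt-c-d shared a peak in an intron, nearest to a Cyt-c-p start (chr2L:16720616-16720991, rank 335, signal 178). These 5 peaks were top in both replicates, at ranks of 245 to 358 in replicate 1 and 165 to 642 in replicate 3.

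Among the 211 other protein-coding genes with 4 optimal-set summits that lay over 100 kb from each of the 10 genes, the pattern closest to that of hid was sought by the best ranks over the 4 lists, as the sum of absolute log2 ratios. It was smallest for spen, which encodes an RNA-binding corepressor (0.57), with ranks of 192 in the optimal set, 300 in replicate 1 and 118 in replicate 3. Next were Gr93b, a gustatory receptor gene (0.79), with 181, 212 and 175, and fok (0.99), with 167, 182 and 147. The best peak of spen had its nearest start at spen, that of Gr93b at Gr93d, and that of fok at CG10747. The best rank in the list of both replicates equals that in the optimal set, so this rank was counted again in the sum. The sum compares only the best peak of each gene, not the places of the other peaks.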

How the data were processed

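Peak lists of 2 biological replicates of 1 group were used in build dm6, 4 lists in all. Per the deposited notes, each replicate list came from its own alignment and a further file, and the optimal set from the 3 longer lists. Which aligner and peak caller were used, and with what thresholds, is not given in the sources used here. The authors' peak signal, as deposited, served only to rank peaks within a list. The deposited −log10 q values (2.66 to 3.63 for optimal-set peaks) entered no test. Lists in dm3 were not used.

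Genes and places came from Ensembl BDGP6 (release 115), without transposable elements, and sequence from RefSeq Release 6. Coordinates count from 1. A summit belonged to a gene when it lay in it or within 10 kb, and each region counted once per class. Regions were ranked by signal, highest first, and replicate partners shared at least 1 bp (best rank taken). All 2546 optimal-set peaks were among the first 2546 of the list of both replicates. Distances are to the nearest start of the gene. Named were the 10 genes, the 6 other cell death genes with the best-ranked summit, the nearest start of each summit, and the 3 genes most like hid. Fadd, named as the only one of its group, was chosen after its value was seen. The genes and lists were chosen with earlier results of these data known. The window rule was tested on simulated data. Python 3.11.15, pandas 2.3.3, numpy 2.4.6 and scipy 1.17.1 were used.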

Additional observations from a re-analysis of the deposited data

How the results depend on the processing

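Of the alternatives tried for the counts by class, the density difference, the whole span and the replicate share, 31 values stayed close to those reported, 18 moved and 4 reversed. Close was a loose label: it included 6 death-gene summits against 4, and a replicate share of 42.9% against 60%. The share was close when inside its 95% interval. The density difference was judged by the SD of 0.51 between the replicates, which are themselves among the alternatives. The number of genes with an optimal-set summit, 4 at 10 kb, was 1 for gene bodies alone, 2 with the stronger 50% of peaks, 2 with peaks that overlap a top region of both replicates, and 3 to 5 with a replicate left out. A replicate left out means here that the top regions of the other replicate alone were counted. No new optimal set was made. The death genes' 4 summits became 1 at 5 kb, 1 at 2 kb and 0 in gene bodies, and 4 to 6 with a replicate left out. The caspase and Dark count of 3 became 6 at 20 kb, 0 in gene bodies, 0 with the stronger 50%, 0 with peaks of both replicates, 5 without replicate 3 and 0 without replicate 1. The inhibitor count of 3 became 1 with the stronger 50%, and 3 to 4 with a replicate left out.

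The difference in summits per 100 kb between death genes and the other 6 genes, -0.11, was -5.15 at 5 kb, -6.86 at 2 kb, -1.52 at 20 kb and -6.98 in gene bodies. It reversed to 3.25 with the stronger 50% and to 2.58 with peaks of both replicates. With the top regions of replicate 1 alone it was 0.51 and with those of replicate 3 alone 1.24, the same values as given in the Results. At 5 and 2 kb the 3 hid peaks that lie 5031 to 9578 bp upstream are lost by construction, and hid then has 1 summit against 3 at Diap1. In gene bodies hid has 0 and Diap1 2. At 20 kb the death genes keep 4 while the caspases and Dark have 6 and the inhibitors 4. The share found in both replicates rose from 60% to 90% with the whole replicate lists. Counts for single genes moved in 17 of 90 values. The depth of the libraries is unknown from peak lists, which limits what an absent region shows. No paired analysis was possible because there is 1 group and no test.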

Other observations

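Regulators of the steroid response that precedes larval cell death had optimal-set summits in 5 of 5 cases, beside 43.2% of all protein-coding genes, with best ranks lower than the best of hid or Diap1. This comparison takes no account of gene length, and a longer window has more room for summits. The ecdysone receptor gene EcR had 5, the best at rank 1222 (signal 92.6) in an intron, nearest to a tRNA gene. Eip74EF, an ETS factor gene induced by ecdysone, had 8, the best at rank 1263 (signal 90.6) and nearest to Vps60. Eip93F had 1 at rank 1567 (signal 80.4), 7472 bp upstream of the nearest Eip93F start, and ftz-f1 had 1 at rank 1654 (signal 78.7), in an intron and nearest to a ftz-f1 start. The Broad-Complex gene br had 2, the better at rank 2085 (signal 68.9), 275 bp upstream of a br start. The replicates differed in several of these counts. In replicates 1 and 3, top regions numbered 0 and 7 at br, 4 and 10 at Eip74EF, and 8 and 5 at EcR, while Eip93F and ftz-f1 had 1 in each. The best peak of Eip74EF overlapped a region of rank 928 in replicate 1 and 4350 in replicate 3, the latter not a top region. For the ftz-f1 peak these ranks were 1799 and 2996, the latter not top. For the best br peak they were 4874 and 1334, the former not top. The best peaks of EcR and Eip93F overlapped top regions in both replicates. These 5 genes were named after their values were seen.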
